A study of Sus scrofa with 95 samples.

Results

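Cytosolic ribosomal protein genes were followed across 5 organs and 3 arms of an infant swine study of cardiopulmonary bypass with deep hypothermic circulatory arrest. The members were the rows of the count table whose symbol starts with RPL or RPS and a digit, or is RPLP0, RPLP1, RPLP2 or RPSA, without the RPS6K kinases. This gave 68 of 35670 rows, of which 51 carry their symbol in the table and 17 were named from a table of gene IDs, and 10 kinase rows were left out. By their names 37 belong to the large subunit and 30 to the small subunit, and 1 row, RPS19BP1, codes for a binding partner of RPS19 and no ribosomal protein. RPL7L1, which acts in ribosome assembly, is among the 37 by its name alone. In each organ 67 members passed the low-count filter. The exception was RPL10L, a copy of RPL10 known in humans mainly from testis, which was at 0 in all libraries but 1 control liver (0.023 CPM) and 1 control lung (0.031 CPM). Many ribosomal protein genes have processed pseudogenes or close copies, so reads may have been divided between copies and the level of each such gene is uncertain.

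The animals weighed 5 to 10 kg. In the linrodostat arm, 4 animals underwent bypass with 75 min of circulatory arrest and received 75 mg of linrodostat, an inhibitor of the tryptophan-degrading enzyme IDO1. In the CPB arm, 7 animals underwent the same bypass and arrest and received no drug. In the control arm, 8 animals were anesthesia controls without bypass or drug. Heart (left ventricle), terminal ileum, kidney cortex, liver and lung (right lower lobe) were taken from every animal, so that each arm has as many libraries per organ as animals, 95 in all. Kidney and ileum were removed just before euthanasia and the other organs just after, and the heart libraries carry a batch number of their own in the labels. Heart therefore cannot be told apart from that batch in any comparison between organs.

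Ribosomal proteins assemble with ribosomal RNA in the nucleolus into the small and the large subunit, and are made in matched amounts because a cell needs all of them for a ribosome. Their mRNAs start with a terminal oligopyrimidine (TOP) tract, through which mTOR signaling sets how strongly they are translated, so an mRNA level is not a measure of protein made. Several genes have paralogs that replace the common protein in particular tissues, and RPL3L, the striated muscle form of RPL3, is the best known.

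Libraries held 19956858 to 53627711 counts, and the 6 marker genes chosen for each organ were all found in the organ that they mark. Levels below are counts per 1e6 counts of a library (CPM), scaled by the trimmed mean of M values (TMM), within an organ unless stated. Such levels compare a gene between libraries and not one gene with another, since transcript lengths were not used. Calls are from edgeR's quasi-likelihood test at a Benjamini-Hochberg adjusted p under 0.05 over all genes tested in the organ. Values after ± are standard errors beside a log2 fold change and SDs beside a mean. In bulk tissue, fewer cells of a type and less RNA per cell cannot be told apart.

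The 68 rows together took 2.10 to 12.4% of all counts in a library. In liver the share was 4.16% ± 0.83 in linrodostat animals (n = 4) and 3.60% ± 0.37 in CPB animals (n = 7), against 2.76% ± 0.44 in controls (n = 8). The 4 linrodostat livers, at 3.57, 3.80, 3.88 and 5.39%, were all above the highest control liver, at 3.37%, whereas the lowest CPB liver, at 3.11%, lay inside the control range. In lung the share was 5.25% ± 0.73 in linrodostat animals and 5.64% ± 1.20 in CPB animals, against 4.34% ± 0.66 in controls. In kidney it was 4.49% ± 1.02 in linrodostat animals and 4.63% ± 0.92 in CPB animals, against 3.87% ± 0.65 in controls. The arms overlapped in both lung and kidney.

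In ileum the linrodostat libraries spread widely, at 4.96, 5.62, 8.77 and 12.4% (mean 7.94% ± 3.42), against a mean of 5.80% ± 1.60 in CPB and 5.28% ± 0.99 in control ilea. The 2 high libraries, from animals 20 and 24, exceeded every CPB ileum (highest 7.88%) and every control ileum (highest 6.34%). In heart the share was 2.84% ± 0.13 in linrodostat animals and 3.20% ± 1.25 in CPB animals, against 2.93% ± 0.51 in controls. One CPB heart, animal 19, stood at 5.79% with the next CPB heart at 3.65%. The lung of the same animal had the highest share in its organ, at 7.95%, whereas its liver had the lowest share among CPB livers, at 3.11%.

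**Figure D1:**
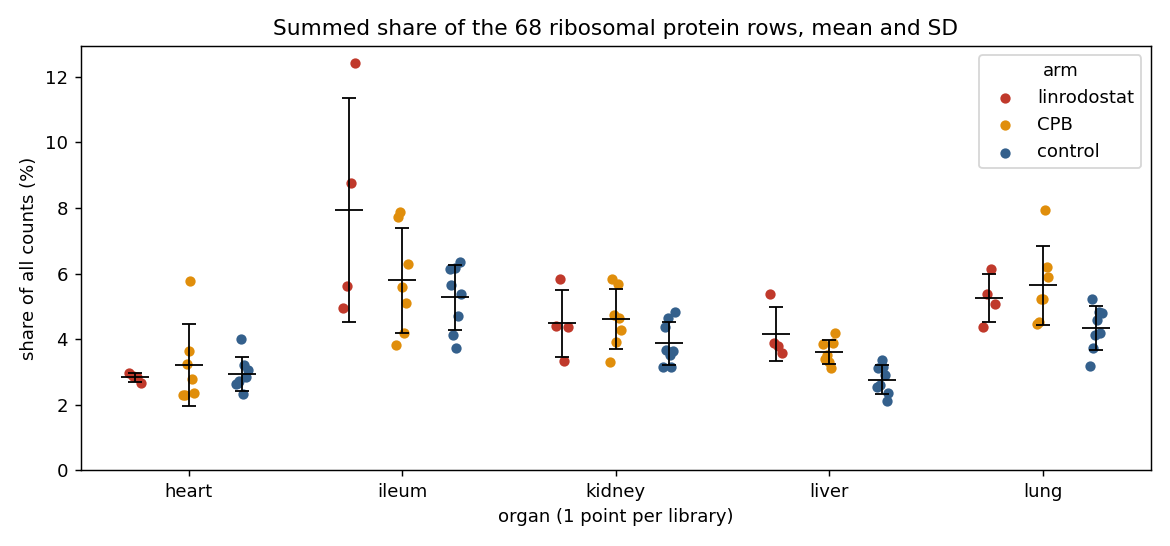
Summed share of the 68 ribosomal protein rows in all counts of a library (%, y axis) by organ (x axis), with 1 point per library colored by arm; black bars give the mean and SD. All 4 linrodostat livers lie above the highest control liver at 3.37%, and single libraries stand high in ileum (12.4%, linrodostat) and heart (5.79%, CPB).

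Among control animals, the question was how the members' levels differ between organs. On a TMM scale common to the control libraries of all organs, members were highest in liver. There 58 of 67 were higher and 0 lower than the mean of the other 4 control organs, against 34.3% of all genes higher and 35% lower. In kidney 1 member was higher and 47 lower (31.9% and 30.3% of all genes), and in lung 1 was higher and 48 lower (32.3% and 30.4%). In heart 22 were higher and 9 lower (31% and 40.4%), and in ileum 20 were higher and 4 lower (34.2% and 32.2%).

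These directions rest on the scaling. When libraries were scaled by total count, liver had 3 members higher and 52 lower (12.3% and 71.8% of all genes) and heart 2 higher and 50 lower (16.4% and 61.3%). Kidney then had 14 higher and 5 lower (57.4% and 11.3%), lung 35 higher and 2 lower (62.1% and 11%), and ileum 60 higher and 1 lower (54.2% and 16.6%). Total count scaling also moved the median of all genes, to -1.13 (log2) in liver, -0.81 in heart, 0.62 in lung, 0.50 in kidney and 0.48 in ileum. Relative to the median of all genes, the members' median was 0.62 in liver under TMM and 0.63 under total count, and 0.37 and 0.34 in heart. It was 0.12 and 0.14 in ileum, -0.40 and -0.40 in kidney, and -0.36 and -0.35 in lung. As a share of all counts, by contrast, control liver (2.76%) and control heart (2.93%) were lowest, control kidney (3.87%) and control lung (4.34%) came next, and control ileum (5.28%) was highest. The SDs of 0.44 and 0.51 percentage points in liver and heart exceed the gap between these neighbors, and the gap between kidney and lung (SDs 0.65 and 0.66) is also within the spread.

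**Figure D2:**
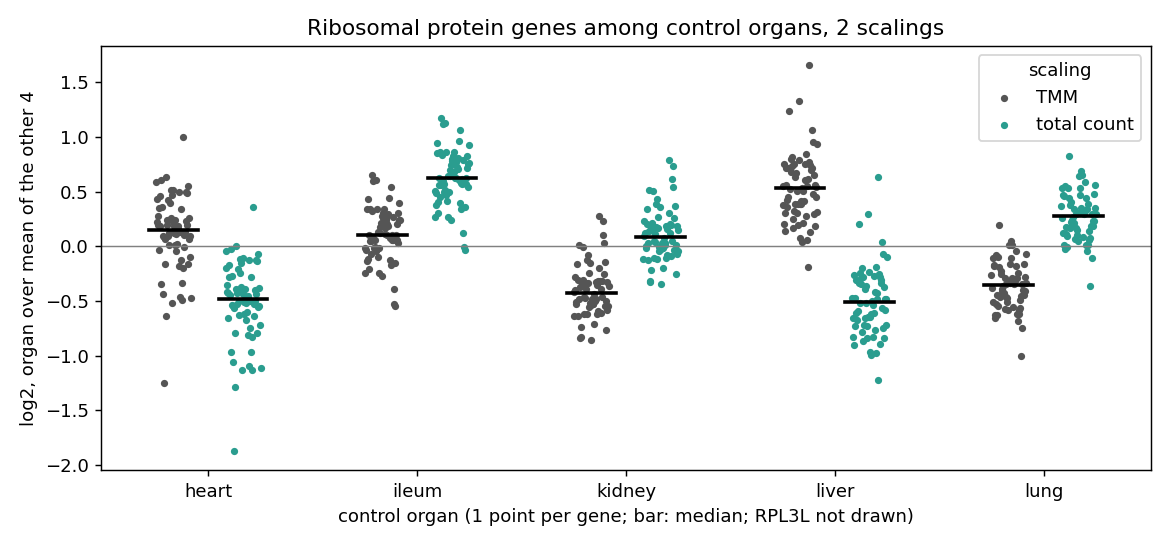
Log2 ratio of each ribosomal protein gene in a control organ over the mean of the other 4 control organs (y axis) by organ (x axis), under TMM scaling (grey) and total count scaling (green), 1 point per gene and a bar at the median; RPL3L is not drawn. The medians change sign with the scaling in heart, kidney, liver and lung and stay positive in ileum.

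The pair RPL3 and RPL3L differed between organs under both scalings. The protein of RPL3L takes the place of RPL3 in ribosomes of heart and skeletal muscle. On a TMM scale common to all libraries of the 3 arms, RPL3L had 109 to 231 CPM in control hearts (median 160 CPM). Its control medians elsewhere were 4.69 CPM in liver, 2.94 CPM in kidney, 0.73 CPM in ileum and 0.13 CPM in lung. The heart values overlap with none of these. The log2 difference of heart from the mean of the other organs was 7.01 ± 0.20 (adjusted p = 9.74e-29), and 6.40 with total count scaling. RPL3, which lies near the peptidyl transferase center, had a median of 345 CPM in control heart, its lowest organ, against 571 CPM in kidney, 756 CPM in lung, 956 CPM in ileum and 1030 CPM in liver. In heart it was lower than in the other organs by a log2 difference of -1.25 ± 0.09 (adjusted p = 6.49e-15), and -1.87 with total count scaling. RPL3 in control liver (900 to 1202 CPM) and control ileum (762 to 1166 CPM) overlapped widely.

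RefSeq places RPL3L on chromosome 3 of Sscrofa11.1 at 40004907 to 40016702 and RPS2, a small subunit protein at the mRNA entry side, next to it at 39996179 to 40003110. RPS2 in control heart differed from the other control organs by 0.34 ± 0.11 on the log2 scale (adjusted p = 0.0042), and by -0.28 with total count scaling (adjusted p = 0.0163), where RPL3L differed by 7.01 and 6.40. Members that passed in the same direction under both scalings numbered 20 higher and 1 lower in ileum, and 2 higher and 9 lower in heart. They numbered 1 higher and 5 lower in kidney, 3 higher and 0 lower in liver, and 1 higher and 2 lower in lung. The matching share of all genes is not given here, so these counts are not read as a trait of the members. In ileum RPL28 was higher by 0.65 under TMM and 1.17 under total count, and RPL36A by 0.60 and 1.12. In heart RPS24, a small subunit protein mutated in some families with Diamond-Blackfan anemia, was higher by 1.00 and 0.36, and RPL35A was lower, at -0.64 and -1.28. RPL7L1 is a nucleolar relative of RPL7 that acts in ribosome assembly. On the TMM scale common to all libraries, its control medians were 115 CPM in liver and 60.9 CPM in ileum. They were 41.3 CPM in heart, 40.1 CPM in kidney and 39.1 CPM in lung. Its excess in liver over the other organs was 1.33 ± 0.10 on the log2 scale (adjusted p = 2.29e-14) and remained at 0.29 with total count scaling (adjusted p = 0.0218). RPS27L, a p53-responsive paralog of RPS27, was 1.06 ± 0.11 higher in control liver (adjusted p = 2.21e-11), but 0.04 with total count scaling (adjusted p = 0.769).

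**Figure D3:**
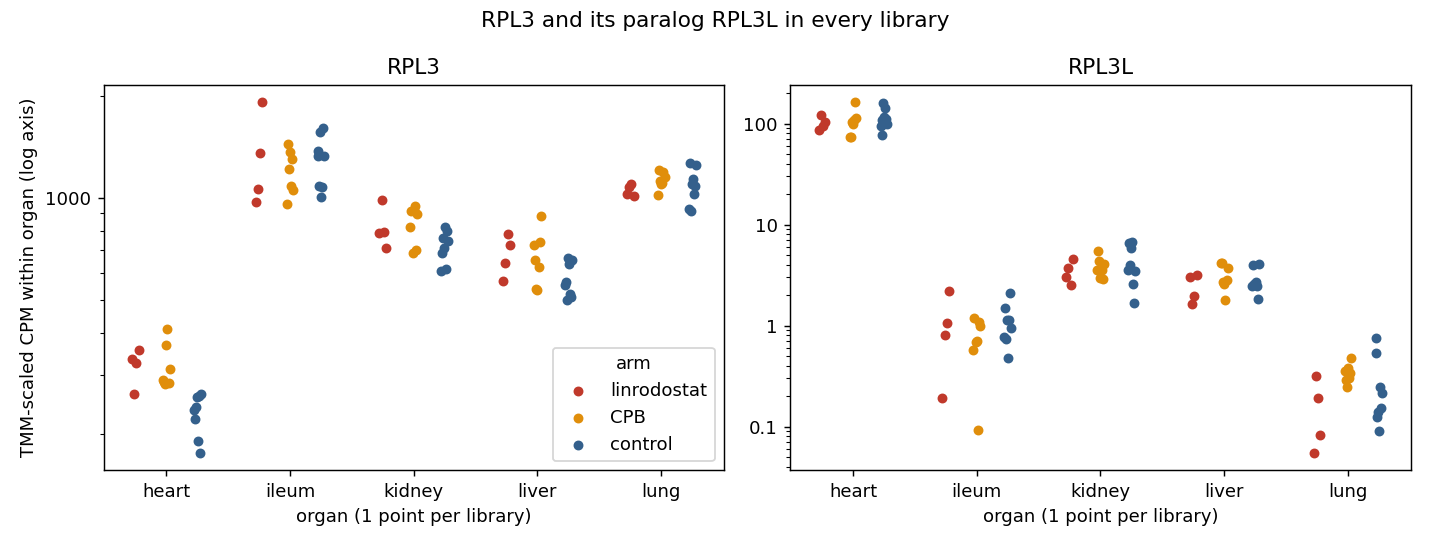
Levels of RPL3 (left) and RPL3L (right) in every library, as TMM-scaled CPM within an organ (log axis), by organ and arm, with 1 point per library. RPL3L is high in heart alone, and in heart every CPB library (282 to 410 CPM) lies above every control library (177 to 263 CPM) for RPL3.

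Bypass with arrest was then set against anesthesia in each organ. Liver had by far the most calls: 55 of 67 members rose in CPB livers and 0 fell, against 15.6% of all genes higher and 11.3% lower. All 67 estimates were above 0, with a median log2 fold change of 0.52 and a range of 0.10 to 0.92, whereas the median over all 15406 genes tested was -0.03. Both subunits took part, with 31 of 36 large subunit genes (median 0.51) and 24 of 30 small subunit genes (median 0.55). Of the members named by the count table itself, 39 of 50 tested rose, as did 16 of the 17 named from gene IDs.

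**Figure D4:**
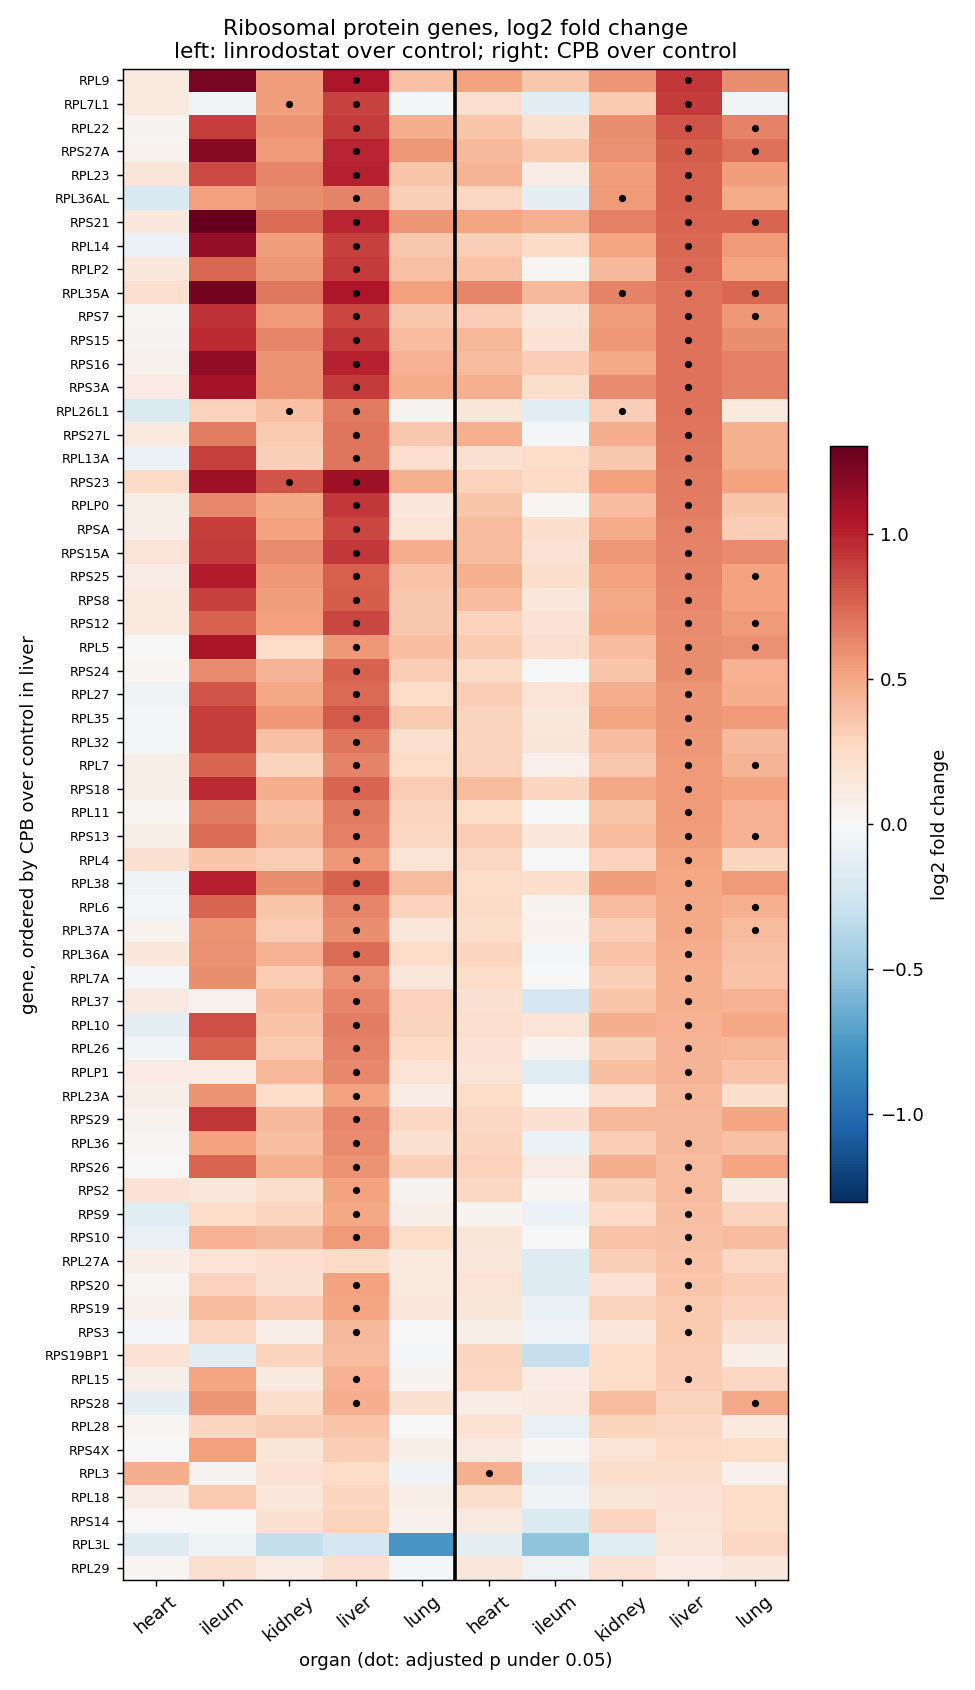
Log2 fold change of 64 of the 67 members tested (rows, ordered by the CPB effect in liver) in 5 organs, for linrodostat over control on the left and CPB over control on the right; color gives the log2 fold change and a dot an adjusted p under 0.05. Dots fill the liver columns (55 of these 64 for linrodostat, 54 for CPB), and outside liver the CPB side has 13 dots for lung, 3 for kidney, 1 for heart and 0 for ileum.

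Among the stalk proteins, which recruit the GTPases of translation, RPLP0 had 1063, 1182, 1231 and 1955 CPM in linrodostat livers and 985 to 1484 CPM in CPB livers (median 1062 CPM), against 585 to 845 CPM in control livers (median 720 CPM). No treated liver of either arm overlapped with a control liver. The fold change of CPB over control was 0.66 ± 0.13 (adjusted p = 0.0018). RPLP2 had a larger estimate, 0.73 ± 0.16 (adjusted p = 0.0028), and RPLP1 a smaller one, 0.44 ± 0.12 (adjusted p = 0.0134). RPSA, a small subunit protein also described as a laminin receptor precursor, had 740 to 1135 CPM in CPB livers (median 795 CPM), against 406 to 662 CPM in control livers (median 579 CPM). RPSA, too, showed no overlap between CPB and control livers.

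RPL9, a large subunit protein near the stalk base, had the largest estimate. It stood at 623 to 1089 CPM in CPB livers (median 924 CPM), against 241 to 700 CPM in control livers (median 479 CPM), and its arms overlapped through 1 CPB library and 1 control library. Its log2 fold change was 0.92 ± 0.23 (adjusted p = 0.0066). RPL22, which is dispensable for translation itself and known for a role in lymphocyte development in mice, followed with 0.82 ± 0.19 (adjusted p = 0.0038). RPS27A, made as a fusion with ubiquitin, reached 0.78 ± 0.20 (adjusted p = 0.0085), and RPL23, one of the proteins that bind MDM2, reached 0.77 ± 0.21 (adjusted p = 0.0118). RPL5 and RPL11, which form the 5S particle that binds MDM2 when assembly is disturbed, rose by 0.61 ± 0.16 (adjusted p = 0.0095) and 0.56 ± 0.13 (adjusted p = 0.0054).

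The paralog RPL7L1 had 70.7 to 166 CPM in CPB livers (median 116 CPM), against 45.0 to 70.4 CPM in control livers (median 62.5 CPM). The groups did not overlap, the lowest CPB liver lying just above the highest control. Its fold change of 0.91 ± 0.15 (adjusted p = 5.54e-04) exceeded in size that of RPL7, 0.56 ± 0.13 (adjusted p = 0.0046), though the difference between the paralogs was not tested. RPL26L1, a near copy of RPL26, had 24.6 to 39.4 CPM in CPB livers (median 29.2 CPM), against 17.2 to 20.9 CPM in control livers (median 17.9 CPM). These groups, too, were apart, with a fold change of 0.71 ± 0.12 (adjusted p = 5.54e-04), beside 0.44 ± 0.16 for RPL26 (adjusted p = 0.0417). RPL36AL rose by 0.77 and RPL36A by 0.48 in CPB livers. In all, 6 members had every CPB liver above every control liver, namely RPL26L1, RPL7, RPL7L1, RPLP0, RPS7 and RPSA, against 2.56% of all genes.

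**Figure D5:**
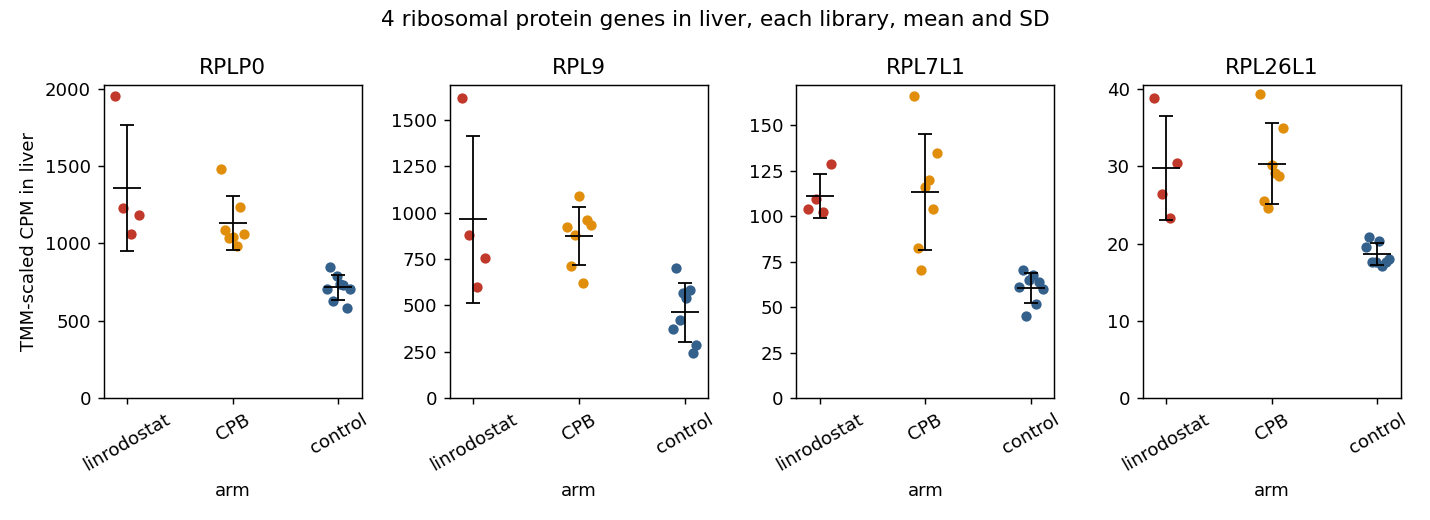
TMM-scaled CPM (y axis, from 0) of RPLP0, RPL9, RPL7L1 and RPL26L1 in each liver library by arm (x axis), with the mean and SD as black bars. For RPLP0, RPL7L1 and RPL26L1 all linrodostat and CPB livers lie above all control livers, and for RPL9 the ranges overlap.

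Among the smallest passing changes in CPB livers were 0.32 ± 0.11 for RPL15, 0.35 ± 0.11 for RPS3, 0.35 ± 0.11 for RPS19 and 0.36 ± 0.12 for RPS20. RPS19 is the gene most often mutated in Diamond-Blackfan anemia, and RPS3 lies at the mRNA entry channel and also acts in DNA repair. Among the 12 members that did not pass were RPL18, RPL28, RPL29, RPL3, RPL3L, RPS14, RPS19BP1, RPS28, RPS29 and RPS4X. RPS14, which is lost in the 5q deletion of human myelodysplastic syndrome, had 208 to 349 CPM in CPB livers (median 279 CPM), against 192 to 316 CPM in control livers (median 254 CPM). Its log2 difference of 0.16 ± 0.13 was within the spread (adjusted p = 0.35). RPL3 in liver was likewise at 0.22 ± 0.12 (adjusted p = 0.18).

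Of the 55 calls in CPB livers, 33 passed under every other scaling, filter, covariate and tool tried and also with any 1 animal left out. With total count scaling 33 members rose in CPB livers, against 8.9% of all genes. That scaling moved the median of all genes to -0.16, and the members' median relative to it was 0.54, against 0.55 under TMM.

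Markers of other cells moved in CPB livers as well. Of the B cell markers 7 of 9 fell, of the macrophage markers 5 of 9 fell, of the T and NK cell markers 3 of 9 tested fell, and of the neutrophil markers 3 of 4 tested rose. The summed B cell markers were 13.0 to 38.6 CPM in CPB livers, against 19.1 to 41.4 CPM in control livers. The summed macrophage markers were 433 to 816 CPM in CPB livers, against 614 to 1261 CPM in control livers, and the neutrophil markers 5.06 to 17.4 CPM in CPB livers, against 2.83 to 10.7 CPM in controls. None of these lists has a marker at 0 in all livers. Counts from mitochondrial DNA made up 3.34% ± 0.75 in CPB livers, against 4.66% ± 0.81 in control livers. Their part in the members' change was not tested.

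In lung, 13 of 67 members rose in CPB animals and 0 fell, against 2.08% of all genes higher and 2.62% lower. The median was 0.45, with 66 of 67 estimates above 0, against 0.01 over all genes. The 13 were RPL22, RPL35A, RPL37A, RPL5, RPL6, RPL7, RPS12, RPS13, RPS21, RPS25, RPS27A, RPS28 and RPS7. RPS28, which had the smallest p and lies at the mRNA exit channel, stood at 374 to 606 CPM in CPB lungs (median 432 CPM), against 278 to 395 CPM in control lungs (median 326 CPM). The groups overlapped through 2 CPB libraries, and the fold change was 0.49 ± 0.11 (adjusted p = 0.0199). The largest estimates were 0.76 ± 0.22 for RPS21 (adjusted p = 0.0482), 0.75 ± 0.20 for RPL35A (adjusted p = 0.0346) and 0.71 ± 0.18 for RPS27A (adjusted p = 0.0311). RPS28 was among the members that did not pass in liver.

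The count in lung depended on single animals and on the test. The lungs of CPB animal 25 and control animal 1 stood apart, since their 10 most abundant genes took 24.5% and 27.03% of counts, against 4.60 to 6.49% in the other lungs, and their TMM factors were 0.825 and 0.788, with the others at 0.947 or above. Without both, 0 members passed by edgeR (0.378% of all genes higher) and the median was 0.36. Leaving out 1 animal gave 0 to 39 members: 0 without CPB animal 25, 1 without CPB animal 19 or without control animal 1, 7 or 10, 2 without CPB animal 21 or control animal 26, and 4 without control animal 15. It gave 6 without CPB animal 11 or linrodostat animal 24, 8 without linrodostat animal 12 or 18, 20 without CPB animal 2 and 39 without CPB animal 6. DESeq2 called 34 members higher (4.07% of all genes by that tool), a fit with sex 29, and total count scaling 1 (0.807% of all genes). For the fit with sex and the fits with 1 animal left out, the share of all genes is not given here. Those counts therefore describe stability only. The median stayed between 0.33 and 0.51 whichever animal was left out. Beside these changes, 6 of 9 macrophage markers and 4 of 9 B cell markers fell and 2 of 4 neutrophil markers rose in CPB lungs. Summed macrophage markers were 3023 to 6260 CPM in CPB lungs, against 5958 to 10321 CPM in control lungs. Summed kidney markers were 0.386 to 67.6 CPM in CPB lungs (median 1.16 CPM) and 0.248 to 35.3 CPM in linrodostat lungs. Control lungs had 0.474 to 2.09 CPM. The highest were CPB animals 19 and 25, at 67.6 and 59.7 CPM. Their part in the members' change was not tested.

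In kidney 3 of 67 members rose in CPB animals and 0 fell, against 11.3% of all genes higher and 9.86% lower, so the share called was below that of all genes. The median was 0.39, with 66 of 67 estimates above 0, against -0.03 over all genes. RPL36AL had 180 to 314 CPM in CPB kidneys (median 221 CPM), against 114 to 200 CPM in control kidneys (median 163 CPM), with overlap and a fold change of 0.55 ± 0.19 (adjusted p = 0.0428). RPL26L1 (0.32 ± 0.11, adjusted p = 0.0494) and RPL35A (0.65 ± 0.23, adjusted p = 0.0499) lay at the threshold. None of the 3 passed in every leave-one-out fit, and leaving out 1 animal gave 0 to 14 members. The count was 0 without CPB animal 6, 19, 21 or 25, control animal 1, 7, 14 or 15 or linrodostat animal 12, 1 without CPB animal 9 or control animal 13, 6 without control animal 10 or linrodostat animal 20, and 14 without CPB animal 11. In CPB kidneys 5 of 9 macrophage markers fell, with a summed level of 189 to 411 CPM, against 218 to 1702 CPM in control kidneys. Of 6 smooth muscle markers 4 fell, with a summed level of 201 to 712 CPM in CPB kidneys (median 461 CPM), against 528 to 1445 CPM in control kidneys (median 894 CPM). The summed liver markers were 554 to 1062 CPM in CPB kidneys, against 286 to 663 CPM in control kidneys, and 1 of the 5 tested rose. Mitochondrial counts made up 15.7% ± 3.9 in CPB kidneys, against 12.0% ± 1.8 in control kidneys. The part of these in the members' change was not tested.

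In heart 1 of 67 members rose in CPB animals and 0 fell, against 6.39% of all genes higher and 5.53% lower. This was RPL3. It had 263, 325, 335 and 356 CPM in linrodostat hearts and 282 to 410 CPM in CPB hearts (median 289 CPM), against 177 to 263 CPM in control hearts (median 239 CPM). Every heart of both bypass arms lay above every control heart, by a narrow margin between the lowest linrodostat heart (263.4 CPM) and the highest control heart (262.7 CPM). Between CPB and control hearts, 1.11% of all genes showed such a separation. The log2 fold change of CPB over control was 0.46 ± 0.12 (adjusted p = 0.0126), it passed without any 1 animal, and it was lost with total count scaling, under which 3.04% of all genes were higher and their median moved to -0.18. RPL3L had 73.4 to 162 CPM in CPB hearts (median 104 CPM), against 77.3 to 160 CPM in control hearts (median 110 CPM), and its difference of -0.11 ± 0.17 was within the spread (adjusted p = 0.696). Of 6 smooth muscle markers 2 rose in CPB hearts and 0 fell, with summed levels of 4199 to 8879 CPM in CPB hearts (median 6968 CPM), against 3856 to 5740 CPM in control hearts (median 4441 CPM). All CPB hearts but animal 9 exceeded every control heart in this sum. The part of smooth muscle in the RPL3 difference was not tested.

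The members' median in heart, 0.27, depended on single libraries and ranged from 0.04 to 0.40 with any 1 animal left out. Without CPB animal 19 it was 0.04, with 51 of 67 estimates above 0 in place of 66, and RPL3 still passed. In the heart library of animal 19 RPL36AL stood at 336 CPM, with the other CPB hearts at 96.7 to 150 CPM. Several of its marker sums were the highest or lowest of the 19 hearts. Its erythroid markers summed to 146 CPM, the highest of the 19 hearts, with the next, a control heart, at 91.1 CPM. Its kidney markers summed to 17.2 CPM, also the highest, with CPB animal 2 next at 12.7 CPM. Its heart markers summed to 57030 CPM, the lowest, but CPB animal 11 was close, at 58452 CPM, against 84138 to 104610 CPM in control hearts. Its endothelial markers summed to 404 CPM, the lowest, with control animal 10 next at 447 CPM. Its neutrophil and lung markers were the highest by a small margin. They summed to 5.305 and 1.88 CPM, with control hearts next at 5.2955 and 1.85 CPM. Its B cell markers summed to 9.84 CPM, within the range of the other hearts save CPB animal 11, at 106 CPM. Their part in the members' level was not tested.

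In ileum 0 members changed in CPB animals by edgeR, and 0% of all genes did. DESeq2 also called 0 members, against 0.0186% of all genes higher. The median was 0.03, and 41 of 67 estimates were above 0.

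Of the 67 members, 1 rose in CPB animals in 3 organs, 13 in 2 organs, 43 in 1 organ and 10 in none. Of the 13637 genes tested in all 5 organs, 1.70% rose in 3 organs, 7.16% in 2, 18.4% in 1 and 72.4% in none. The counts for 2 and 3 organs rest on the lung and kidney calls, of which 0 passed in every fit with 1 animal left out. The 1 was RPL35A, a large subunit protein mutated in some families with Diamond-Blackfan anemia, with log2 fold changes of 0.71 in liver, 0.75 in lung and 0.65 in kidney, beside 0.63 in heart and 0.42 in ileum, where it did not pass. A single model over the 95 libraries of all organs and arms tested whether the effect of CPB over control itself differed between organs. It did so for 1 member, against 12.9% of 20321 genes. This was RPL7L1 (adjusted p = 0.0134), with effects of 0.91 in liver, 0.34 in kidney, 0.22 in heart, -0.04 in lung and -0.14 in ileum from the organ fits. The next by p were RPL26L1 (adjusted p = 0.104), RPL3 (0.115), RPL36AL (0.14) and RPL37 (0.155), which did not pass. For the other members this test did not pass, so the greater number of calls in liver is not read as a difference between organs.

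Linrodostat was set against CPB alone to ask what the drug adds to bypass. By edgeR, 0 of 67 members changed in any organ, against 0.759% of all genes higher and 0.013% lower in liver and 0% in the other organs, and DESeq2 called 0 members as well. By DESeq2 1.18% of all genes changed in liver, 0.219% in ileum, 0.0826% in heart, 0.0171% in lung and 0.0139% in kidney. The median log2 difference was 0.63 in ileum with all 67 estimates above 0, 0.14 in liver, 0.02 in kidney, -0.18 in lung and -0.25 in heart. Members varied together between libraries, so the estimates above 0 are not separate results. Without CPB animal 19 the heart median was -0.01. The 4 linrodostat animals limit what these comparisons can detect.

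Linrodostat with bypass was also set against anesthesia control. Both this comparison and that of CPB alone use the same control libraries. In liver 57 of 67 members rose and 0 fell, against 12.9% of all genes higher and 8.88% lower, with a median of 0.65. For 50 members every linrodostat liver lay above every control liver, against 7.86% of all genes. RPS23, which lies at the decoding center, had 482, 531, 543 and 925 CPM in linrodostat livers, against 169 to 403 CPM in control livers (median 282 CPM), with no overlap. Its change of 1.11 ± 0.20 was the largest (adjusted p = 0.0016), followed by RPL9, RPL35A, RPL23 and RPS16 at 1.06, 1.05, 1.01 and 1.00. RPL7L1 reached 0.88 ± 0.18 (adjusted p = 0.0025) and RPLP0 0.92 ± 0.15 (adjusted p = 9.77e-04). Among the smallest passing changes were 0.42 for RPS3, 0.45 for RPL15 and 0.48 for RPS28. Animal 12 was the highest linrodostat liver for RPLP0, RPL9, RPS23 and RPL26L1, and without it 33 members passed and the median was 0.49.

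In linrodostat livers 3 of 4 neutrophil markers rose, 6 of 9 macrophage markers fell and 0 of 9 B cell markers passed. Summed macrophage markers were 411 to 684 CPM in linrodostat livers, against 614 to 1261 CPM in control livers. Of the ileum markers, several of which liver shares, 3 of 5 tested rose, with a summed level of 588 to 2090 CPM in linrodostat livers, against 60.7 to 2112 CPM in control livers. Their part in the members' change was not tested.

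In kidney 3 members rose in linrodostat animals and 0 fell, against 11.7% of all genes higher and 8.27% lower: RPS23 at 0.82 ± 0.27 (adjusted p = 0.0401), RPL7L1 at 0.55 ± 0.17 (adjusted p = 0.0309) and RPL26L1 at 0.38 ± 0.13 (adjusted p = 0.0493). Animal 18 was the highest for all 3, and without it 0 members passed and the median was 0.16 in place of 0.40. Its kidney also had the highest mitochondrial share of all kidneys, 20.9%, where linrodostat kidneys averaged 15.7% ± 4.8 and control kidneys 12.0% ± 1.8. In linrodostat kidneys 3 of 4 neutrophil markers rose, 4 of 9 macrophage and 3 of 6 endothelial markers fell, and the summed ileum markers were 94.8 to 186 CPM, against 31.0 to 121 CPM in control kidneys. Their part was not tested. The count was also 0 without linrodostat animal 12 or control animal 1 or 7, 1 without control animal 14 or CPB animal 21 or 25, and 13 without linrodostat animal 20.

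In ileum 0 members passed by edgeR, against 0.151% of all genes higher and 0.0616% lower, although the median was 0.67. RPS29, a zinc finger protein of the small subunit, had the smallest p. It stood at 507, 642, 863 and 1087 CPM in linrodostat ilea, against 314 to 467 CPM in control ilea (median 409 CPM), without overlap, and its difference of 0.93 ± 0.22 did not pass (adjusted p = 0.0639). RPL9, RPS27A and RPS29 were the 3 members with no overlap, against 1.19% of all genes. DESeq2 called 16 members higher, against 2.59% of all genes. By edgeR 16 were called without linrodostat animal 12, a fit for which the share of all genes is not given here. Without linrodostat animal 24 the median was 0.30. The ileum of animal 24 also had the highest summed B cell markers of all ilea, 4197 CPM, and animal 20 had 2691 CPM, with animals 12 and 18 at 404 and 707 CPM. CPB ilea spanned 361 to 2820 CPM and control ilea 250 to 3693 CPM, and none of the 9 B cell markers passed between linrodostat and control ilea. Smooth muscle markers ran the other way, with sums of 25084, 2359, 1017 and 255 CPM in the ilea of linrodostat animals 12, 18, 20 and 24. The 6 ilea with the highest smooth muscle sums, at 9421 CPM or more (linrodostat animal 12, CPB animals 2 and 19, and control animals 7, 13 and 14), had member shares of 3.73 to 4.96%. None of the 6 smooth muscle markers passed between linrodostat and control ilea, and the part of either list in the members' levels was not tested.

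In heart and lung 0 members passed between linrodostat and control by edgeR, against 1.08% and 1.06% of all genes higher and 0.96% and 1.28% lower. DESeq2 called 1 member in heart and 0 in lung, against 2.18% and 2.29% of all genes higher. The medians were 0.05 in heart and 0.24 in lung. RPL3 in heart had an estimate of 0.47 ± 0.14 (adjusted p = 0.0748), and all 4 linrodostat hearts lay above all controls, as for 1.29% of all genes.

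Within an organ the members varied together from library to library. After removal of the arm means, the median Pearson correlation between pairs of members over 19 libraries was lowest in liver, at 0.73, and was 0.85 in lung, 0.87 in kidney, 0.90 in ileum and 0.94 in heart. These are descriptions of points that share libraries and scaling factors. RPL3L was least like the rest in heart, ileum and lung, and RPL7L1 in kidney and liver.

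Genes that work with ribosomal proteins were counted from lists in the same fits, where in CPB animals 15.6% of all genes rose and 11.3% fell in liver, 11.3% and 9.86% in kidney, 6.39% and 5.53% in heart, 2.08% and 2.62% in lung and 0% in ileum. Of 25 tested genes of ribosome assembly and ribosomal RNA synthesis, 20 rose and 0 fell in CPB livers, with a median of 0.92, led by GNL3 (1.58 ± 0.24, adjusted p = 3.42e-04), NOLC1 (1.35 ± 0.25, adjusted p = 0.001) and NOP56 (1.31 ± 0.24, adjusted p = 9.28e-04), all nucleolar proteins. In CPB kidneys 16 rose and 1 fell, in CPB hearts 2 rose and 1 fell (near the share of all genes), in CPB lungs 0 rose and 1, TCOF1, fell, and in CPB ilea 0 changed. In lung 13 members rose and in kidney 3. With 1 animal left out these counts ranged from 0 to 39 in lung and from 0 to 14 in kidney. The members' median then stayed at 0.33 to 0.51 in lung and 0.28 to 0.44 in kidney. No order between these organs is drawn from the counts, and the contrast with the assembly list was not tested. Of 13 other mRNAs of the TOP class, 5 rose in CPB livers, among them EEF1B2 (0.81), BTF3 (0.49) and EIF3E (0.46), and 0 passed in the other organs. The ribosomal protein gene FAU, which the symbol rule does not reach, rose by 0.45 ± 0.12 in CPB livers (adjusted p = 0.0121), and RACK1 did not pass in any organ.

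Of 17 genes of mTOR signaling and its control of TOP translation, 6 rose and 3 fell in CPB livers, 4 rose and 1 fell in CPB kidneys, 2 rose in CPB hearts and 0 passed in CPB lungs or ilea, in a list too short to be told apart from the shares of all genes given above without a test of its own. EIF4E, the cap-binding protein, rose by 1.35 ± 0.16 in liver, 0.69 ± 0.16 in kidney and 1.15 ± 0.26 in heart. RHEB, the GTPase that activates mTOR, rose by 0.80 ± 0.13, 0.55 ± 0.11 and 1.24 ± 0.18 in the same organs. DEPTOR, an mTOR inhibitor, fell in CPB livers by 0.59 ± 0.19 (adjusted p = 0.0243). Of 69 mitochondrial ribosomal protein genes, 40 rose and 0 fell in CPB livers (median 0.45), 13 rose in CPB kidneys, 4 rose and 2 fell in CPB hearts, near the share of all genes, and 0 passed in lung or ileum.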

How the data were processed

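Whole-organ mRNA was sequenced as paired reads of 150 bp, per the labels' protocols. The deposited table holds expected counts per gene, and the submitters' processing notes name Trim Galore, cutadapt, STAR, Salmon and build Sscrofa11.1, without versions. Counts were rounded to whole numbers and analysed in R 4.3.3 with edgeR 4.0.16 (filterByExpr, TMM, robust quasi-likelihood test over the 3 arms of an organ). One model over organs tested the difference of the bypass effect, and another compared control organs. Alternatives were RLE or total count scaling, all genes without a filter, a term for sex, DESeq2 1.42.0 and each animal left out in turn. The members, gene lists and tests were chosen with earlier results of these data known. Named genes are the paralog pairs, stalk genes and others with a known disease or assembly role, and up to 5 passing members with the highest and 5 with the lowest change per comparison. RPL22L1, RPL39, RPL39L, RPS27 and RPS6 were not analysed here. A few genes enter the counts and medians but are not reported by name here.

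Animal numbers are shared by the 5 organs, so they pair libraries across organs but not across arms. Residuals of the same animal had a median correlation of 0.0887 to 0.196 over 10 pairs of organs. No 2 libraries of a group were copies. RefSeq positions were matched by symbol for 67 of 68 members, and sequences are not printed.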

Additional observations from a re-analysis of the deposited data

Results flagged for a closer look

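The summed share of the members and the levels of 11 genes were examined for an extreme library within 1 arm of 1 organ. This made 48 sets of values, so not every gene was examined in every organ and arm. Dixon's test was used at the 95% level, which chance alone would meet in about 1 set in 20. It was met in 3. In CPB hearts, animal 19 had a summed share of 5.79%, with the next at 3.65%. In linrodostat livers, animal 12 had a share of 5.39%, with the next at 3.88%. In control ilea, animal 13 had 314 CPM of RPS29, with the next at 397 CPM. The bypass effect on RPL7L1 differed between the 5 organs in a test of the difference itself (adjusted p = 0.0134, edgeR), with the largest effect in liver.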

How the results depend on the processing

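Among control organs, total count scaling turned the balance in 4 of 5: it gave 2 members higher and 50 lower in heart, 14 higher and 5 lower in kidney, 3 higher and 52 lower in liver, and 35 higher and 2 lower in lung. In ileum it gave 60 members higher. The cause was not tested beyond the shift of the median of all genes given above. For CPB against control, members higher were 0 in heart with total count scaling; in kidney 0 with RLE, 0 with total count, 1 with no filter and 5 with DESeq2; in liver 33 with total count; and in lung 1 with total count, 5 with no filter, 29 with sex and 34 with DESeq2. Without the lungs of CPB animal 25 and control animal 1 together, a setting chosen after seeing the data, 0 were higher in lung. For linrodostat against control, DESeq2 gave 1 in heart and 16 in ileum, and total count gave 0 in kidney. The difference between organs had 2 members with RLE and 1 with animal as a block. The replicate block gave 24 higher in heart, 25 in ileum, 58 in liver, 52 lower in kidney and 49 lower in lung, and changed no call of direction. Arms hold different animals, so no block could be used within an organ.

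With any 1 animal left out, members rising in CPB over control animals ranged from 42 to 57 for liver, 0 to 39 for lung, 0 to 14 for kidney and 1 to 2 for heart (2 without control animal 10), with 0 for ileum. Those rising in linrodostat over control animals ranged from 33 to 58 for liver, 0 to 16 for ileum, 0 to 13 for kidney and 0 to 1 for heart (1 without CPB animal 19), with 0 for lung. For linrodostat against CPB it gave 0 in all organs. The matching shares of all genes are not given here, so these ranges describe stability only. The CPB over control ratio of the summed share was 0.38 (log2) in both liver and lung, and 0.38 and 0.40 without mitochondrial and the 10 most abundant genes. Low counts limit RPL3L outside heart.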
